A study of Mus musculus with 6 samples.

Results

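Transient receptor potential (TRP) channels are cation channels of the plasma membrane and of organelles that open to heat, irritants, lipids, oxidants or calcium. The 9 genes described here, Trpv1, Trpv2, Trpv3, Trpv4, Trpv6, Trpa1, Trpm2, Trpm4 and Trpc1, were taken by symbol as TRP channels known from keratinocytes, leukocytes and sensory nerve, and all 9 had a row among the 19309 genes of the deposited table. They were measured by RNA sequencing of whole ear skin from C57BL/6 mice aged 6 to 8 weeks in a model of skin allergy. The DNFB group is the left ears of 3 mice, which received 10 µL of 0.25% DNFB (dinitrofluorobenzene, a small reactive chemical used to provoke allergic contact dermatitis) for 6 days starting on day 6. The vehicle group is the right ears of the same 3 mice, which received 10 µL of the solvent, 80% acetone with 20% olive oil, on the same schedule. A first dose of 25 µL of 0.5% DNFB had sensitised every animal, so the vehicle ears come from sensitised mice and no unsensitised animal was part of the comparison.

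In skin, Trpv3 and Trpv4 are known as warmth-sensitive calcium-permeable channels of keratinocytes, and Trpv6 as a calcium-selective channel of epithelia. Trpm2, opened by ADP-ribose and oxidants, and Trpv2 are known from macrophages, neutrophils and mast cells. Trpv1, the capsaicin receptor, and Trpa1, a receptor for electrophilic irritants, are best known from pain and itch neurons, whose cell bodies lie in ganglia outside the ear.

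After DNFB the make-up of TRP transcripts in the ear differed, while their summed level overlapped between groups. Trpm2 and Trpv2 rose, Trpv4, Trpv6, Trpm4 and Trpc1 fell, Trpv3 did not pass the test, and Trpv1 and Trpa1 were at 15 counts or fewer in every library. Of the 9 genes, 7 had enough counts to be tested (10 or more counts, scaled for library size, in at least 3 libraries), and 6 of these 7 passed an adjusted p of 0.05 by edgeR's quasi-likelihood test, against 51.3% of all 15317 genes tested. The 2 that were higher compare with 25.9% of all genes and the 4 that were lower with 25.4%. Of the 2, Trpm2 had enough counts in DNFB ears only, which fixed the direction of its call. The median log2 fold change of the 7 was -0.54, beside -0.02 over all genes tested. Without the DNFB ear of mouse 3 all 7 passed, 2 higher and 5 lower, Trpv3 being the fifth to fall. With any other single library left out only 3 to 5 passed, and Trpv3 turned to 0.08 without the DNFB ear of mouse 1.

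Libraries held 19556754 to 20336945 estimated counts, so depth hardly differed between ears. The DNFB ear of mouse 3 stood apart from the other DNFB ears. Summed levels of neutrophil markers, in CPM (counts scaled to library size), were 3051, 2602 and 1272 in the DNFB ears of mice 1, 2 and 3 and 50.4 to 90.8 in vehicle ears, with 10 of 10 markers higher. For Trem1 and Ly6g, at 6 to 9 and 1 to 5 counts in vehicle ears, only the DNFB ears passed the filter on low counts. The direction of both calls was fixed by that filter. Retnlg and Mmp8, at 6 to 12 and 8 to 16 counts in vehicle ears, did not reach it in all of those ears. They too were tested only through the DNFB ears, which fixed their direction. Skin and leukocyte markers were present in every ear, so the tissue label holds. Counts of marker genes called, here and below, are to be read against 25.9% of all genes higher and 25.4% lower. With both ears of mouse 3 left out, 9066 genes passed over the whole table in place of 7862, and 4487 or 2594 passed without mouse 1 or mouse 2. The mice are the replicates, 3 per group, and in whole skin fewer cells of a type and less RNA per cell cannot be told apart.

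**Figure D1:**
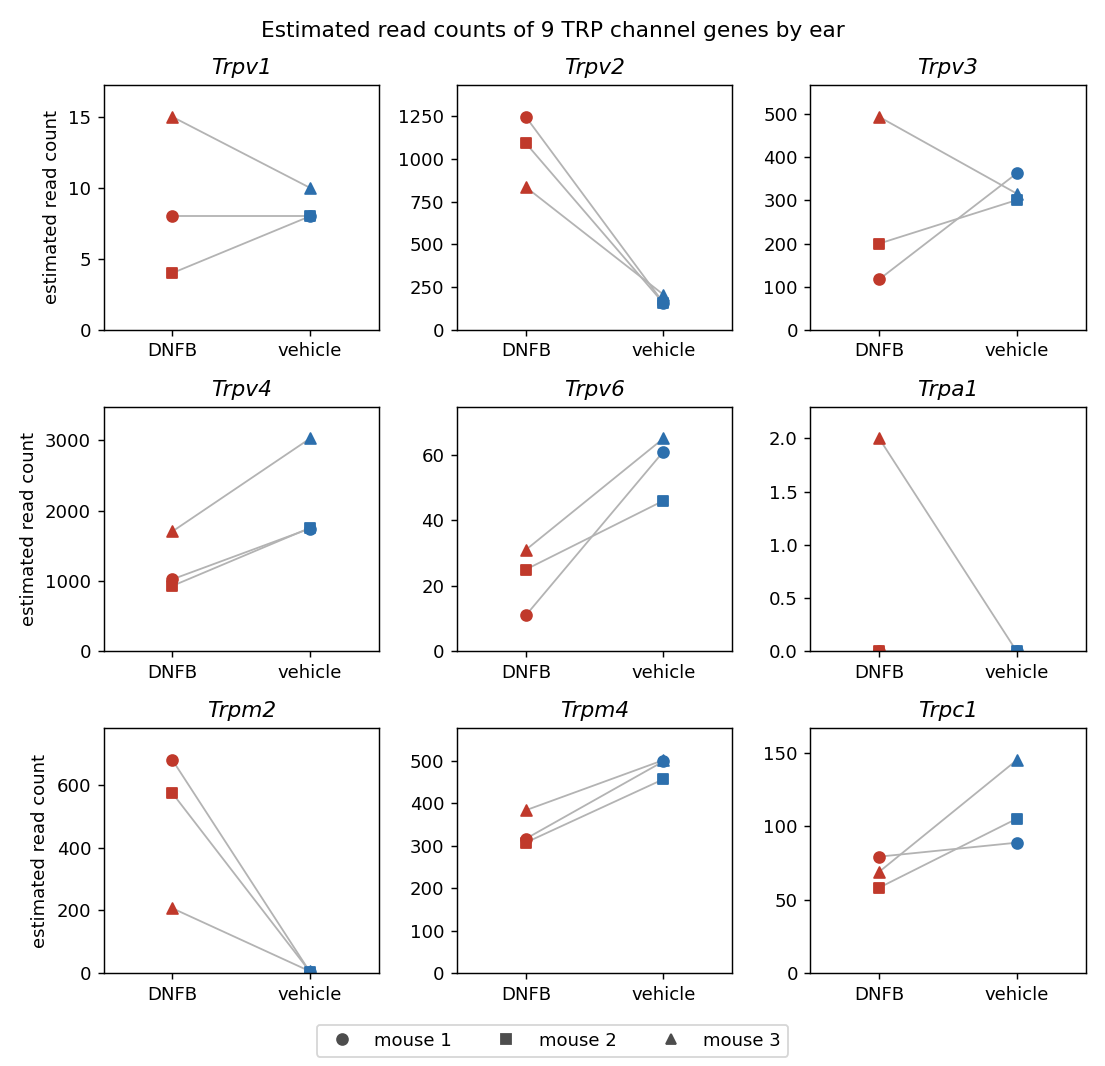
Estimated read counts (y axis, linear, from 0) of each of the 9 TRP genes in DNFB ears (left, red) and vehicle ears (right, blue), with a grey line joining the ears of 1 mouse. Trpm2 and Trpv2 lie higher in all 3 DNFB ears and Trpv4, Trpv6, Trpm4 and Trpc1 lower. The lines of Trpv3 cross, and those of Trpv1 differ in direction between mice.

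The sequence 250 bases upstream of the RefSeq start site is shown for the 2 genes that rose and for the 2 with the largest falls. Sequences are from RefSeq on build GRCm38.p6, 5′ to 3′ on the strand of the gene, and RefSeq had such a window for 7 of the 9 genes. They lie at chr10:77969873-77970122, minus strand for Trpm2, chr11:62574236-62574485, plus strand for Trpv2 (the first of 3 windows given), chr5:114658422-114658671, minus strand for Trpv4 and chr6:41636406-41636655, minus strand for Trpv6. Capitals mark matches, on either strand, to the core GAGGAA of PU.1-type ETS factors, the AP-1 motif TGANTCA, the TATA motif TATAAA and the GC box GGGCGG, none of which overlapped here.
Trpm2: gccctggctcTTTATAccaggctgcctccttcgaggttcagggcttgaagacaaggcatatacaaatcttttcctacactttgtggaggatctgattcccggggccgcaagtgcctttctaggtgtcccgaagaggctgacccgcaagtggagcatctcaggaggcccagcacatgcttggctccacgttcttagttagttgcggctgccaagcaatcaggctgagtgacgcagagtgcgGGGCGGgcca
Trpv2: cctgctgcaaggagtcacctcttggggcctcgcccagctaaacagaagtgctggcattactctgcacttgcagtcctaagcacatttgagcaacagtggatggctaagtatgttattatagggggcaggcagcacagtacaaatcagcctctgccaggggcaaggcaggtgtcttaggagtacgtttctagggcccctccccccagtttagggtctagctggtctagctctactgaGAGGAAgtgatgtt
Trpv4: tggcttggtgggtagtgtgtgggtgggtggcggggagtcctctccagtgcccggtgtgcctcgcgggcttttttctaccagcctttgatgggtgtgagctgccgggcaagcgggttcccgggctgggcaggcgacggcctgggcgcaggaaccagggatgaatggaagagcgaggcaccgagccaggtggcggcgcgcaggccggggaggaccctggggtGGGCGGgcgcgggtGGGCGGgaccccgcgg
Trpv6: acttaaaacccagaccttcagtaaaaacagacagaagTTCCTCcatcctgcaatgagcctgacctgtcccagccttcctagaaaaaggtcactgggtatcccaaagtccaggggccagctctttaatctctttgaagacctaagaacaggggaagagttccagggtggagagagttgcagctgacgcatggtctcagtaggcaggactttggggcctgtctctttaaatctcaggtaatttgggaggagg
The window of Trpv2 held 1 GAGGAA match, which lies near the start site, and that of Trpv6 also held 1, beside 23.3% of 32817 such windows across the genome. The window of Trpm2 held 1 TATA match at its far end and 1 GC box close to the start, and that of Trpv4 held 2 GC boxes, beside 12.4% and 32.7% of all windows with at least 1 match. The AP-1 motif, present in 6.8% of windows, was found in none of these 4. The GC content was 72.0% in the Trpv4 window and 49.6% to 56.8% in the other 3, with a median of 52.4% over all windows.

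Trpm2 encodes a calcium-permeable channel of phagocytes that is opened by ADP-ribose after oxidative stress. It had 679.76, 573.86 and 206.64 counts in the DNFB ears of mice 1, 2 and 3, against 3.09, 4.07 and 5.35 counts in their vehicle ears. The groups did not overlap, as for 30.6% of all genes in this direction, and the DNFB ear of mouse 3 was the lowest of its group. Trpm2 averaged 24.2 ± 12.4 CPM in DNFB ears and 0.199 ± 0.0458 CPM in vehicle ears (SD, n = 3 each), with a log2 fold change of 6.88 ± 0.62 (approximate SE, adjusted p = 0.000275 by edgeR). The ratio of summed counts was 121, with a 95% counting interval of 69.2 to 235 that covers counting error only. It was the 45th largest increase among the 15317 genes tested. Only the DNFB libraries carried it past the filter on low counts, so the direction of its call was fixed by the filter.

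The rise of Trpm2 was seen in each animal. Within mice 1, 2 and 3 the log2 ratio of CPM was 7.81, 7.12 and 5.41. The log2 fold change lay between 6.57 and 7.25 with any single library left out. Leukocyte markers moved with it: all 10 pan-leukocyte and myeloid markers rose (median log2 fold change 2.59), and their summed level was 3662 to 6305 CPM in DNFB ears and 1091 to 1251 CPM in vehicle ears. Set against the summed TPM of those markers, Trpm2 stood at 1.59, 1.62 and 0.771 per 1000 in the DNFB ears of mice 1, 2 and 3 and at 0.0327, 0.0594 and 0.0482 per 1000 in their vehicle ears. Against the summed TPM of neutrophil markers (median log2 fold change 5.32) it stood at 1.27 to 2.09 per 1000 in DNFB ears and 0.309 to 0.740 per 1000 in vehicle ears. The vehicle values of these ratios rest on 3.09 to 5.35 counts of Trpm2 a library, and the part of leukocyte number in its rise was not tested.

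Trpv2 encodes a calcium-permeable channel found in macrophages and mast cells as well as in neurons. It had 1246, 1091.66 and 834.93 counts in the DNFB ears of mice 1, 2 and 3, against 158, 156 and 206 counts in their vehicle ears. The groups did not overlap, and mouse 3 had the lowest DNFB ear and the highest vehicle ear. Trpv2 averaged 52.5 ± 10.4 CPM in DNFB ears and 8.62 ± 1.12 CPM in vehicle ears (SD, n = 3 each), 6.10-fold higher after DNFB, with a log2 fold change of 2.61 ± 0.18 (approximate SE, adjusted p = 0.000118 by edgeR). Within mice 1, 2 and 3 the log2 ratio was 2.97, 2.76 and 2.06.

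Trpv2 was also set against the leukocyte marker sum. Per 1000 of the summed TPM of pan-leukocyte and myeloid markers it stood at 4.16, 4.42 and 4.71 in the DNFB ears of mice 1, 2 and 3 and at 3.27, 2.81 and 3.58 in their vehicle ears. These ratios did not overlap between groups, with means of 4.43 per 1000 in DNFB ears and 3.22 per 1000 in vehicle ears. Of the mast cell markers 6 of 10 were higher and 1 lower (median log2 fold change 0.45), with summed levels of 1119 to 1405 CPM in DNFB ears and 613 to 693 CPM in vehicle ears. A large part of the rise in that sum lay in Hdc alone, at 364 ± 153 CPM in DNFB ears and 23.8 ± 8.51 CPM in vehicle ears (SD, n = 3 each). Of the T cell markers 9 of 10 were higher (median log2 fold change 1.98), with summed levels of 97.2 to 239 CPM in DNFB ears and 43.4 to 54.3 CPM in vehicle ears. Cd8a, among those higher, had 8.14 to 14.34 counts in vehicle ears. It was tested only through the DNFB ears, which fixed the direction of its call. Per 1000 of the summed TPM of mast cell markers, Trpv2 stood at 16.8 to 22.8 in DNFB ears and at 4.93 to 7.03 in vehicle ears. Per 1000 of that of T cell markers it stood at 154 to 239 in DNFB ears and at 95.4 to 107 in vehicle ears. Neither ratio overlapped between groups. The part of these cells in the rise of Trpv2 was not tested.

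**Figure D2:**
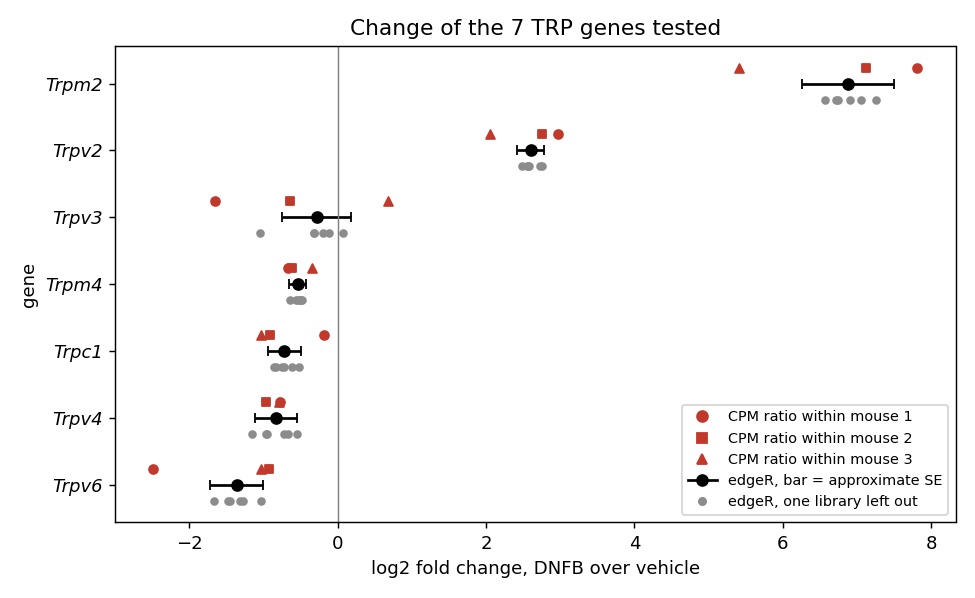
Log2 fold change (x axis) of the 7 TRP genes tested, DNFB over vehicle. Black points are edgeR values with bars of 1 approximate SE, red points above are CPM ratios within each mouse, and grey points below are edgeR values with 1 library left out. Trpm2 at 6.88 and Trpv2 at 2.61 stand apart from the other 5, and the 3 mice of Trpv3 lie on both sides of 0.

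Trpv4, a channel of keratinocytes that responds to warmth and to osmotic and mechanical stress, was the most abundant of the 9 in vehicle ears and fell after DNFB. It had 1025, 931 and 1705.32 counts in the DNFB ears of mice 1, 2 and 3, against 1746, 1755 and 3025 counts in their vehicle ears. Both ears of mouse 3 were high within their groups, and the groups did not overlap, as for 32.0% of all genes in this direction, but lay close to each other. Trpv4 averaged 60.5 ± 20.7 CPM in DNFB ears and 107.8 ± 32.7 CPM in vehicle ears (SD, n = 3 each), with a log2 fold change of -0.83 ± 0.28 (approximate SE, adjusted p = 0.0436 by edgeR). Within mice 1, 2 and 3 the log2 ratio was -0.78, -0.96 and -0.79, so the fall was of much the same size in each animal although their levels differed. Blocking on mouse gave -0.84 with an adjusted p of 0.00432. Without the block the call was lost when a single library was dropped, with adjusted p of 0.0582 to 0.145, unless that library was DNFB mouse 3, and also without mouse 1 (0.110) or mouse 2 (0.183). The log2 fold change was -0.54 without the vehicle ear of mouse 3.

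Trpv6, a calcium-selective channel of absorptive epithelia that is also made by keratinocytes, showed the largest fall of the 7 tested. It had 11, 25 and 31 counts in the DNFB ears of mice 1, 2 and 3, against 61, 46 and 65 counts in their vehicle ears. The groups did not overlap, and the DNFB ear of mouse 1 was the lowest. Trpv6 averaged 1.11 ± 0.509 CPM in DNFB ears and 2.85 ± 0.411 CPM in vehicle ears (SD, n = 3 each), with a log2 fold change of -1.36 ± 0.36 (approximate SE, adjusted p = 0.0170 by edgeR). Dropping the vehicle library of mouse 1 (adjusted p = 0.0604) or mouse 3 (0.0591), or all of mouse 1 (0.0688) or mouse 2 (0.104), ended the call.

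Trpv3, the warmth channel of keratinocytes that assembles with the EGF receptor, did not pass (log2 fold change -0.28 ± 0.46, approximate SE, adjusted p = 0.634 by edgeR). It had 117, 200 and 493.99 counts in the DNFB ears of mice 1, 2 and 3, against 363, 301 and 316 counts in their vehicle ears. Vehicle ears were close to each other, while the DNFB ears were spread widely and lay on both sides of them. Within mice 1, 2 and 3 the log2 ratio was -1.65, -0.64 and 0.69. Without the DNFB ear of mouse 3 the log2 fold change was -1.04 with an adjusted p of 0.00438, and without both ears of mouse 3 it was -1.08 (0.00816). Without the DNFB ear of mouse 1 its sign turned, at 0.08 (adjusted p = 0.859).

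Keratinocyte markers were measured beside these 3 channels. Of 11 suprabasal markers 10 fell and the other 1 missed the threshold (median log2 fold change -1.52), with summed levels of 4343, 6998 and 9500 CPM in the DNFB ears of mice 1, 2 and 3 and 17005 to 22345 CPM in vehicle ears. Of 8 basal markers 2 fell and the other 6 missed the threshold (median log2 fold change -0.27), with summed levels of 6030 to 9411 CPM in DNFB ears and 7551 to 9491 CPM in vehicle ears. Over all genes 25.4% were lower, near the share of the basal markers. The DNFB ears had the same order in the suprabasal sum, in the basal sum (6030, 8928 and 9411 CPM in mice 1, 2 and 3) and in their Trpv3 and Trpv6 counts.

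Set per 1000 of the summed TPM of suprabasal markers, Trpv6 stood at 0.0568 to 0.0870 in DNFB ears and at 0.0590 to 0.0889 in vehicle ears, which overlap. Trpv3 on the same scale was at 0.325, 0.354 and 0.535 in the DNFB ears of mice 1, 2 and 3 and at 0.200 to 0.226 in vehicle ears, so it was higher in each DNFB ear relative to these markers. Per 1000 of the summed TPM of basal markers, Trpv4 was at 4.83, 2.93 and 5.10 in the DNFB ears of mice 1, 2 and 3 and at 5.54, 6.59 and 12.1 in their vehicle ears. On the suprabasal scale the direction of Trpv4 was the other way in mice 1 and 2, with 4.75, 2.96 and 3.28 in the DNFB ears of mice 1, 2 and 3 and 1.79, 2.03 and 3.75 in their vehicle ears. Trpv6 was at 0.0576 to 0.102 in DNFB ears and 0.192 to 0.286 in vehicle ears per 1000 of the basal sum. The part of keratinocyte number and state in these changes was not tested.

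Trpm4, a channel opened by intracellular calcium that carries sodium and potassium but not calcium, fell in each animal. It had 316, 307 and 383.02 counts in the DNFB ears of mice 1, 2 and 3, against 498, 456 and 501 counts in their vehicle ears. The groups did not overlap, and both were tight. Trpm4 averaged 16.7 ± 1.98 CPM in DNFB ears and 24.2 ± 0.656 CPM in vehicle ears (SD, n = 3 each), with a log2 fold change of -0.54 ± 0.12 (approximate SE, adjusted p = 0.00764 by edgeR). It passed with any single library left out (adjusted p 0.000977 to 0.0360), but not without both ears of mouse 1 (0.0941) or mouse 2 (0.102). Per 1000 of the summed TPM of basal keratinocyte markers, Trpm4 stood at 1.16, 0.743 and 0.893 in the DNFB ears of mice 1, 2 and 3 and at 1.23, 1.32 and 1.56 in their vehicle ears, so it was lower on that scale too. Per 1000 of that of pan-leukocyte and myeloid markers, which rose, it stood at 0.697 to 1.42 in DNFB ears and 5.44 to 6.73 in vehicle ears. Trpm4 was not set against the suprabasal markers, which fell. The part of these cells in the fall of Trpm4 was not tested.

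Trpc1, a widely made subunit of mixed TRPC channels, had 79.41, 58.26 and 69.07 counts in the DNFB ears of mice 1, 2 and 3, against 88.94, 105.31 and 145.29 counts in their vehicle ears. The groups did not overlap, but in mouse 1 the 2 ears were nearly level. Trpc1 averaged 3.41 ± 0.507 CPM in DNFB ears and 5.62 ± 1.27 CPM in vehicle ears (SD, n = 3 each), with a log2 fold change of -0.72 ± 0.22 (approximate SE, adjusted p = 0.0300 by edgeR). The call ended when mouse was a block (adjusted p = 0.0592), on log2 TPM (0.0858), without the DNFB ear of mouse 2 (0.105), without the vehicle ear of mouse 2 (0.0765) or mouse 3 (0.101), and without both ears of mouse 2 (0.204) or mouse 3 (0.0964). Skeletal muscle markers, all 8 of which fell (median log2 fold change -1.23, summed levels of 1168 to 1778 CPM in DNFB ears and 2490 to 4065 CPM in vehicle ears), were lower in the same group. Within the vehicle ears of mice 1, 2 and 3 the order was opposite, with 4.45, 5.43 and 6.97 CPM of Trpc1 beside muscle sums of 4065, 3391 and 2490 CPM. Per 1000 of their summed TPM, Trpc1 stood at 0.714 to 0.837 in DNFB ears and 0.363 to 0.865 in vehicle ears, which overlap, and their part in the fall of Trpc1 was not tested. Fibroblast markers, with 3 of 8 higher and 2 lower (median log2 fold change 0.13), had overlapping sums of 9525 to 11564 CPM in DNFB ears and 10248 to 10696 CPM in vehicle ears. Over all genes 25.9% were higher and 25.4% lower. Per 1000 of the summed TPM of fibroblast markers, Trpc1 stood at 0.294, 0.210 and 0.288 in the DNFB ears of mice 1, 2 and 3 and at 0.305, 0.303 and 0.449 in their vehicle ears, which do not overlap.

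The neuronal channels were barely detected. Trpv1 had 8, 4 and 15 counts in the DNFB ears of mice 1, 2 and 3, against 8, 8 and 10 counts in their vehicle ears. The groups overlapped fully, and the ratio of summed counts was 1.03, with a 95% counting interval of 0.581 to 1.85. That interval leaves out the spread between ears, so it is not a limit of detection, and larger changes could also be missed. Trpa1 had 2 counts in the DNFB ear of mouse 3 and 0 in the other 5 libraries, and both groups lie under the 3 counts that a count of 0 over a group allows, so no fold is given.

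Neither Trpv1 nor Trpa1 passed the filter on low counts. Markers of sensory neurons were low as well. Of 13 measured, 7 could be tested, of which 3 were higher and the other 4 missed the threshold (median log2 fold change 0.21). Their summed level was 16.0 to 21.9 CPM in DNFB ears and 12.2 to 14.5 CPM in vehicle ears, carried mostly by Tubb3 and Uchl1, which are not restricted to sensory neurons. The sodium channel Scn9a of pain neurons had no count in DNFB ears and 1.06 counts in 1 vehicle ear, and Scn11a had 3 to 5 counts in DNFB ears and 6 to 11 in vehicle ears. The neuropeptide genes Calca, with 13 to 18.19 counts in DNFB ears and 3 to 4.05 in vehicle ears, and Tac1, with 16 to 28 counts in DNFB ears and 1 to 4 in vehicle ears, both passed as higher, but only the DNFB ears carried them past the filter on low counts, so the direction of these calls was fixed by the filter. Of the 4 that missed the threshold, Isl1 (-0.81), Pou4f1 (-0.95) and P2rx3 (-0.33) had negative log2 fold changes. Schwann cell markers, from the sheath of the nerves, fell in 7 of 10 cases with none higher (median log2 fold change -0.93), and their summed level was 546 to 857 CPM in DNFB ears and 1265 to 1437 CPM in vehicle ears.

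Levels were compared between genes as deposited TPM, which is scaled for gene length. In DNFB ears Trpv2 and Trpv4 came first, at 32.8 ± 6.68 and 31.9 ± 10.5 TPM (mean ± SD, n = 3), with overlapping ranges. Trpm2 followed at 10.5 ± 5.59 TPM, Trpm4 at 6.82 ± 0.760 TPM and Trpv3 at 3.99 ± 2.81 TPM, and neighbours among these 3 overlapped. Trpc1 was at 1.52 ± 0.235 TPM, below the range of Trpv3, and Trpv6 and Trpv1, at 0.643 ± 0.290 and 0.213 ± 0.127 TPM, overlapped with each other. Trpa1 was last, with 0.04 TPM in 1 ear and 0 in the other 2.

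In vehicle ears the order was Trpv4 at 57.9 ± 20.7 TPM, Trpm4 at 10.0 ± 0.745 TPM, Trpv2 at 5.47 ± 1.06 TPM and Trpv3 at 4.94 ± 0.440 TPM (mean ± SD, n = 3). Trpc1 at 2.36 ± 0.694 TPM and Trpv6 at 1.68 ± 0.316 TPM came next, then Trpv1 at 0.207 ± 0.0289 TPM and Trpm2 at 0.0800 ± 0.0265 TPM, with Trpa1 at 0. The ranges of Trpv2 and Trpv3 overlapped, as did those of Trpc1 and Trpv6, and other neighbours did not. Trpm2 thus had rank 3 of 9 in DNFB ears and rank 8 in vehicle ears.

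The summed TPM of the 9 genes was 90.6, 83.3 and 91.2 in the DNFB ears of mice 1, 2 and 3 and 70.8, 67.8 and 109.5 in their vehicle ears, which overlap. Trpv4 made up 29.6%, 29.8% and 48.2% of that sum in the DNFB ears of mice 1, 2 and 3, against 65.2%, 67.5% and 74.8% in their vehicle ears. Trpv2 made up 42.5%, 41.3% and 27.9% in DNFB ears, against 7.05%, 6.98% and 6.11% in vehicle ears. Trpm2 made up 16.3%, 15.2% and 4.57% in DNFB ears and 0.0707%, 0.148% and 0.0822% in vehicle ears. The DNFB ear of mouse 3 lay between the other DNFB ears and the vehicle ears in these 3 shares.

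**Figure D3:**
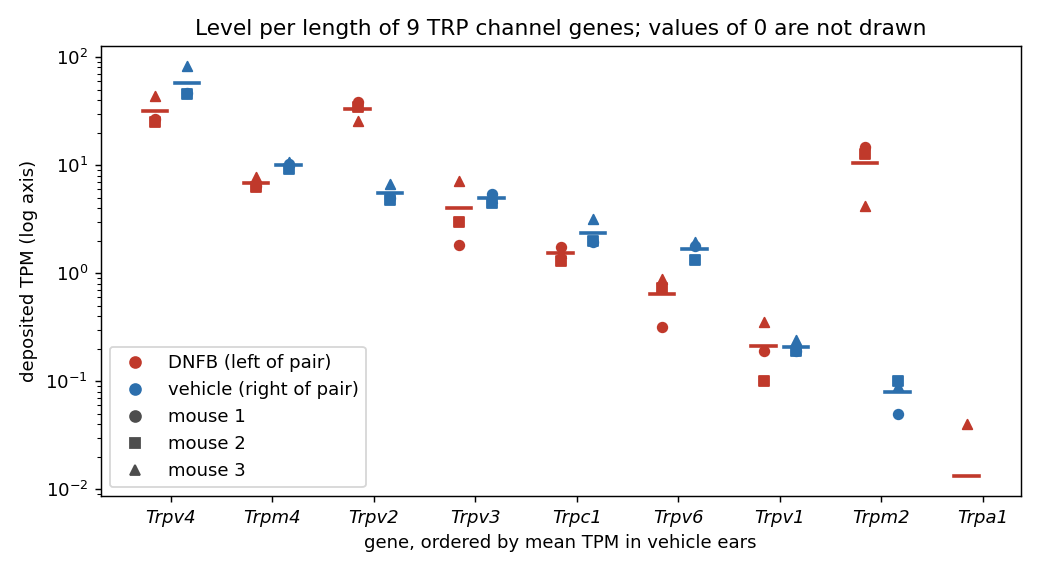
Deposited TPM (y axis, log scale) of the 9 TRP genes in DNFB ears (red, left of each pair) and vehicle ears (blue, right), with a mark per mouse and a line at the group mean, and values of 0 not drawn. Trpv4 leads in vehicle ears at a mean of 57.9 TPM, and Trpm2 is at a mean of 10.5 TPM in DNFB ears, against 0.0800 TPM in vehicle ears.

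Genes with a like course over the 6 libraries were looked for among 12390 other genes whose log2 CPM averaged 2 or more, by the root mean square difference of centred log2 CPM. Nearest to Trpm2 were Nlrp3, the sensor of an inflammasome (0.135 on the log2 scale), and Csf3r, the granulocyte growth factor receptor (0.162). Nearest to Trpv2 were Nckap1l, a haematopoietic actin regulator (0.0404), and Gda, guanine deaminase (0.0668). Trpv4 had Bhlhe41, a transcriptional repressor of the circadian clock (0.0667), and Boc, a hedgehog co-receptor (0.105). Trpv6 had Sp6, an epithelial transcription factor (0.108), and Ahnak2 (0.129), and Trpv3 had Fcamr (0.116) and Mfsd2a, a lysolipid transporter (0.146). For Trpm4 they were Spg20 (0.0371) and Tex2 (0.0380), and for Trpc1 Zfp229 (0.101) and Ntn4, a netrin of basement membranes (0.105). With 6 libraries in 2 groups, such nearness describes these libraries only.

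Genes around the 9 channels were counted in 8 lists, and each count is to be read against the 25.9% of all genes that were higher and the 25.4% that were lower. Of the other TRP family genes 19 were measured and 13 were tested, and 1 rose, 6 fell and the other 6 missed the threshold (median log2 fold change -0.62, against -0.02 over all genes tested). The share called was near the 51.3% over all genes. Mcoln2, a channel of recycling endosomes and lysosomes, rose to 51.3 ± 18.6 CPM in DNFB ears, against 9.94 ± 0.626 CPM in vehicle ears (SD, n = 3 each; log2 fold change 2.37 ± 0.25, approximate SE, adjusted p = 0.000479 by edgeR). It had 846, 786 and 1471.62 counts in the DNFB ears of mice 1, 2 and 3. The DNFB ear of mouse 3 was thus the highest of its group, where it was the lowest for Trpm2 and Trpv2. Trpm5, a channel of taste and tuft cells, had 4 counts in each DNFB ear against 21, 28 and 23 counts in vehicle ears. Its log2 fold change was -2.56. Only the vehicle ears carried it past the filter on low counts, so the direction of its call was fixed by the filter.

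Trpm7, a channel joined to a kinase, was at 82.6 ± 5.89 CPM in DNFB ears and 102.0 ± 3.37 CPM in vehicle ears (SD, n = 3 each). Its log2 fold change of -0.30 passed (adjusted p = 0.0274 by edgeR), but not when mouse was a block (0.0951) or when any single library except DNFB mouse 3 was dropped (0.0531 to 0.0839). Pkd2, the polycystin channel of cilia and endoplasmic reticulum, fell by 0.62. Trpm7 and Pkd2 were singled out after their values were seen. Trpm6 (0.68) and Mcoln1 (0.15) did not pass, and Trpm6 passed once the vehicle library of mouse 3 was dropped (adjusted p = 0.0363). The cold channel Trpm8 had no count in DNFB ears and at most 1 count in a vehicle ear.

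Of the enzymes that make and remove ADP-ribose, the ligand of Trpm2, 4 of 10 rose, 2 fell and the other 4 missed the threshold (median log2 fold change 0.26), beside 25.9% higher and 25.4% lower over all genes. The ecto-enzymes Cd38 and Bst1, which form ADP-ribose and its cyclic form from NAD, rose by 4.06 ± 0.57 and 3.96 ± 0.26 on the log2 scale (approximate SE, adjusted p = 0.00131 and 8.96e-05 by edgeR). Cd38 had 1021.61, 887.71 and 240.3 counts in the DNFB ears of mice 1, 2 and 3, against 43.29, 33.45 and 52.56 counts in their vehicle ears. The DNFB ear of mouse 3 was thus lowest of its group for Cd38 as for Trpm2. Macrod1, which removes ADP-ribose from proteins, fell by 0.66, and Parg (-0.10) and Nudt5 (0.38) did not pass. Nudt9, an ADP-ribose hydrolase whose domain Trpm2 resembles, fell by 0.25 (adjusted p = 0.0412), and its call ended with any single library left out (0.0570 to 0.141) and when mouse was a block (0.121).

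In store-operated calcium entry, to which Trpc1 has been linked, 2 of 10 genes were higher, 3 lower and 5 missed the threshold (median log2 fold change -0.20), a share called near the 51.3% over all genes. The pore subunit Orai2 rose by 1.60 ± 0.27, while the calcium release receptor Itpr3 fell by 1.16 ± 0.18 and caveolin Cav1 by 0.84 ± 0.10 (approximate SE, adjusted p = 0.00288, 0.00216 and 0.000781 by edgeR). Saraf (-0.01) and Itpr2 (-0.42) did not pass. With upper-quartile scaling 5 of the 10 were lower.

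In the list of Trpv3 with the EGF receptor, its ligand Tgfa and transglutaminases, 1 of 6 rose, 1 fell and the other 4 missed the threshold (median log2 fold change 0.05). The transglutaminase Tgm5 fell by 1.47 ± 0.36 (approximate SE, adjusted p = 0.0125 by edgeR), but missed the threshold without both ears of mouse 1 (0.0583) or mouse 2 (0.149). The sheddase Adam17 stood at 0.30. Its call ended under upper-quartile scaling (adjusted p = 0.0888), on log2 TPM (0.0615), when mouse was a block (0.0904) and when any single library except DNFB mouse 3 was dropped (0.0799 to 0.119). Tgm1 (-0.42) and Tgm3 (-0.14), which cross-link the cornified envelope, did not pass. Tgm3 had 849.04, 1904.97 and 2627.04 counts in the DNFB ears of mice 1, 2 and 3, and Tgm1, Tgm5, Egfr and Tgfa had the same order of DNFB ears, which was that of Trpv3. Without the DNFB ear of mouse 3, 2 of the 6 were lower.

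Of the vitamin D and calcium handling genes listed with Trpv6, 8 of 11 were tested, and 3 rose, 1 fell and the other 4 missed the threshold (median log2 fold change -0.00). The sodium-calcium exchanger Slc8a1 rose by 1.90 ± 0.32 and Cyp27b1, which activates vitamin D, by 1.63 ± 0.28, while Rxra, the partner of the vitamin D receptor, fell by 0.77 ± 0.12 (approximate SE, adjusted p = 0.00299, 0.00305 and 0.00205 by edgeR). Cyp27b1 had 20.08 to 25.79 counts in DNFB ears and 7.21 to 7.97 in vehicle ears. Only the DNFB ears carried it past the filter, which fixed the direction of its call. Anxa2 (-0.14) and S100a10 (-0.14), which bind Trpv6, did not pass. Without the DNFB ear of mouse 3, 2 of the list were lower. Cyp24a1, the vitamin D-degrading enzyme, was not tested and was singled out after its values were seen. It had 0, 2 and 435.69 counts in the DNFB ears of mice 1, 2 and 3, against 0, 2 and 2 counts in their vehicle ears, so nearly all of its counts lay in 1 library.

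The phospholipase C and protein kinase C list, enzymes that sensitise several TRP channels, had 3 of 14 genes higher, 3 lower and 8 not passing (median log2 fold change 0.23). Plcb2, the isoform of leukocytes, rose by 2.60 ± 0.26, Prkcd by 0.99 ± 0.10 and Plcg2 by 0.77 ± 0.10 (approximate SE, adjusted p = 0.000366, 0.000451 and 0.000916 by edgeR). The 3 that fell were Prkca (-0.69), Plcg1 (-0.67) and Plcb4 (-0.63). Plcb3 (0.11) did not pass. Without the DNFB ear of mouse 3, 6 of the 14 were higher, and 5 were by DESeq2.

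Receptors and factors that act upstream of Trpv1 and Trpa1 in nerve were measured in the ear, where the channels themselves were near 0. Of 14 measured, 13 were tested, and 9 rose, 1 fell and the other 3 missed the threshold (median log2 fold change 1.60). The prostaglandin receptor Ptger2 rose by 2.98 ± 0.29 and the oncostatin M and interleukin 31 receptor subunit Osmr by 1.70 ± 0.09 on the log2 scale (approximate SE, adjusted p = 0.00034 and 4.88e-05 by edgeR). Ptger2 had 68 to 103 counts in DNFB ears and 8 to 14 in vehicle ears. Not all of its vehicle ears reached the filter on low counts. It was thus tested only through the DNFB ears, which fixed the direction of its call. F2rl1 (0.20) and Ptger1 (0.43) did not pass.

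Enzymes that make or remove lipid agonists of TRP channels split in direction, with 3 of 12 higher, 5 lower and 4 not passing (median log2 fold change -0.60). The cyclooxygenase Ptgs2 rose by 5.35 ± 0.53 and Alox15 by 3.62 ± 0.50, while the epidermal lipoxygenase Alox12e fell by 1.72 ± 0.44 (approximate SE, adjusted p = 0.000369, 0.00122 and 0.0151 by edgeR). Alox12e missed the threshold without the DNFB ear of mouse 2 (0.0582) or the vehicle ear of mouse 1 (0.0546), and without either of these libraries 3 of the 12 were lower. Its call also ended without both ears of mouse 1 (0.0509) or mouse 2 (0.128). Ptgs1 (-0.50) and Fads1 (-0.17) did not pass.

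**Figure D4:**
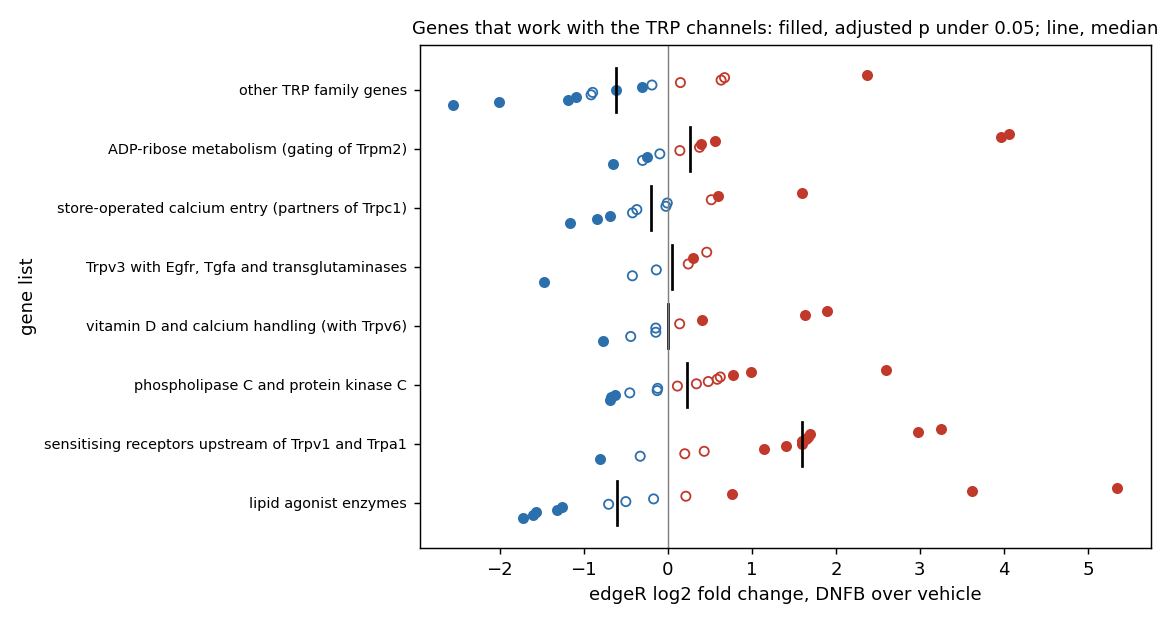
Log2 fold change (x axis, DNFB over vehicle) of the genes tested in 8 lists around the TRP channels, each point a gene, filled where the adjusted p was under 0.05, with a black line at the list median. Medians ran from -0.62 for other TRP family genes to 1.60 for the receptors and factors upstream of Trpv1 and Trpa1.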

How the data were processed

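Polyadenylated RNA of 6 ears was sequenced as single-end reads of 50 bases, per the labels' protocols, and the submitters' processing notes name HISAT and build GRCm39. How reads were counted, on which annotation and strand, is not given in the sources used here. The authors deposited 1 table whose columns, per the file headers, hold counts, FPKM and TPM of each library, and group means that matched the library means. Many deposited counts are not whole: they were taken as estimated counts and rounded before testing. Deposited FPKM gave the same order of levels as TPM.

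edgeR 4.0.16 in R 4.3.3 compared DNFB with vehicle (TMM scaling, filterByExpr with a minimum count of 10, quasi-likelihood test, two-sided, Benjamini-Hochberg over 15317 genes, no block). The procedure was tested on simulated data with independent libraries, a fixed dispersion and few changed genes. That test does not cover paired ears or as many changed genes as here. CPM use TMM-scaled totals. The approximate SE is the size of the log2 fold change over the root of the F statistic. Count-ratio intervals are exact and cover counting error only. P-values set the difference against the spread between the 3 ears of each group, and without a block they do not use the pairing of ears. Mouse numbers in the titles tie both ears of an animal, and deviations from group means correlated at -0.027, -0.148 and -0.0463 for mice 1, 2 and 3. Alternatives were the mouse block, other scalings and filters, DESeq2 1.42.0, limma-voom and limma-trend (limma 3.58.1) on log2(TPM + 0.1), and leaving out each library or mouse.

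In GENCODE M21 transcripts, of build GRCm38, 0 to 2.12% of the 50-base words of a member also occur in another gene, most for Trpv2 and Trpm2. Exons overlapping another gene's were found for Trpm2 alone (0.7% of its exon bases). That build differs from the files', so gene positions are not printed. The members and lists were chosen with earlier results of these data known. Named from each list are at most 3 genes past the threshold, by size of change, and at most 2 that missed it, by abundance. Others named by their values (Trpm8, Nudt9, Scn9a and Scn11a among them) were picked with those values in view. Some genes the rule would name are not reported here. Values set per 1000 of a marker sum were also added after the data were seen. Scn10a and Mrgprd are on the neuron list and were not analysed here. Melanocyte markers (1 of 8 lower, none higher) and endothelial markers (3 of 8 higher, 1 lower) were also measured.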

Additional observations from a re-analysis of the deposited data

How the results depend on the processing

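The rises of Trpm2 and Trpv2 kept their direction and passed under all 8 other settings and with any library or mouse left out, at log2 fold changes of 5.70 to 7.42 and 2.42 to 2.88. The 4 falls kept their direction under the same choices, and Trpc1 alone missed the threshold under a setting that kept all libraries: -0.71 when mouse was a block (adjusted p = 0.0592) and -0.57 on log2 TPM (0.0858), the cause of which was not tested. The block changed no other call of a member. With libraries or mice left out, log2 fold changes ran from -1.15 to -0.54 for Trpv4, -1.66 to -0.98 for Trpv6, -0.64 to -0.47 for Trpm4, -0.97 to -0.52 for Trpc1 and -1.08 to 0.16 for Trpv3, which turned positive without the DNFB ear of mouse 1 (0.08) or without mouse 1 (0.16). Members called ran from 2 to 7, with 2 higher each time and 0 to 5 lower, against 6, 2 and 4 with all libraries. The 2 called without mouse 2 were Trpm2 and Trpv2. Genes named from the lists that missed the threshold by edgeR without mouse 2 included Orai2 (adjusted p = 0.0679), Slc8a1 (0.0669), Macrod1 (0.0702), Pkd2 (0.0594) and Cyp27b1 (0.0607). Genes called over the table ran from 2594 to 9108, 1658 to 4585 higher and 936 to 4601 lower, and genes of the 8 lists from 21 to 62, against 48. These fits have fewer samples. Upper-quartile scaling moved the median of all genes to -0.09. Depth limits Trpv1 and Trpa1, with 27 and 2 counts over the DNFB ears and 26 and 0 over the vehicle ears, and Trpv6, with 11 to 65 counts per library.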
